A study of Mus musculus with 14 samples.

Results

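The genes described are 41 that act in the G1 and S phases of the cell cycle, fixed by name, out of 19752 genes that had an array probe set carrying a single gene symbol. Where a gene had several such probe sets the brightest was used, and all 41 genes had 1. By role they are 8 G1 regulators, 29 genes of the replication machinery and 4 enzymes of nucleotide synthesis. The machinery splits into 13 genes of origin licensing and the helicase, 12 of the polymerases, clamp and ligase, and 4 of chromatin and histone supply. All 41 passed the filter on dim genes, which left 11851 genes to be tested.

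The RNA came from splenic CD4+ T cells of male C57BL/6 mice aged 6 weeks, isolated by negative selection. All cells were first activated with CD3/CD28 beads for 48 h. They were then cultured with interferon alpha at 100 U/ml, together with 1 of 7 JAK inhibitors at its IC80, for 2 h or 8 h. The inhibitors are named here by their target labels: JAK1, JAK1/2, PAN, TYK2 and JAK2, and the pair labelled JAK3, which is given by the titles IFN.6226 and IFN.6228. Each inhibitor and time had 1 array, 14 in all. Cells given no inhibitor, or no interferon, were not analysed here. The labels do not say whether the cells of several mice were pooled.

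As background, a resting T cell leaves G1 when cyclin D with CDK4 or CDK6, and then cyclin E with CDK2, phosphorylate the retinoblastoma protein and free the E2F factors. E2F then switches on the genes that license replication origins, build the replication fork and supply deoxynucleotides. In activated CD4+ T cells this programme follows signals from the antigen receptor, CD28 and interleukin-2, whose receptor uses JAK1 and JAK3. The type I interferon receptor uses JAK1 and TYK2.

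The promoters of 4 members are shown because these genes had the largest negative changes (Cdk6 and Orc1) and the largest positive ones (Ccnd3 and E2f2) from 2 h to 8 h among members with a sequence. They come from RefSeq (build GRCm38.p6) and run 5′ to 3′ on the strand of the gene, from 250 bases before to 50 bases after its start. The Cdk6 promoter is at chr5:3343643-3343942, that of Orc1 at chr4:108579204-108579503, that of Ccnd3 at chr17:47504801-47505100 and that of E2f2 at chr4:136172024-136172323, each on the plus strand. Ccnd3 and E2f2 have 2 entries each, of which the first is printed. Capitals mark matches on either strand to 5 motifs. These were the E2F site (TTTCCCGC or TTTCGCGC or TTTGCCGC or TTTGGCGC), the CHR element TTTGAA, the CCAAT box, the E-box CACGTG and the STAT motif TTCNNNGAA.
Cdk6: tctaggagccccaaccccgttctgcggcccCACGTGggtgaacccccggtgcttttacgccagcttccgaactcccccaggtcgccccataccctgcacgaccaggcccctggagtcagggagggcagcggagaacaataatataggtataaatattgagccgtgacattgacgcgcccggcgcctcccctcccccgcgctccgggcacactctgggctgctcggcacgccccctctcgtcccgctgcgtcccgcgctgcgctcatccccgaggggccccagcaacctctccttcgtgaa
Orc1: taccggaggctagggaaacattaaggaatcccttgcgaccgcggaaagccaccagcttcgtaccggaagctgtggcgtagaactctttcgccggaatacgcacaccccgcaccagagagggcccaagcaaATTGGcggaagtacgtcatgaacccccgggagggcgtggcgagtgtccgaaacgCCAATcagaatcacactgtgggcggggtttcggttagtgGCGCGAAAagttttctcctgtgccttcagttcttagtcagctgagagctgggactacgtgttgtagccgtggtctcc
Ccnd3: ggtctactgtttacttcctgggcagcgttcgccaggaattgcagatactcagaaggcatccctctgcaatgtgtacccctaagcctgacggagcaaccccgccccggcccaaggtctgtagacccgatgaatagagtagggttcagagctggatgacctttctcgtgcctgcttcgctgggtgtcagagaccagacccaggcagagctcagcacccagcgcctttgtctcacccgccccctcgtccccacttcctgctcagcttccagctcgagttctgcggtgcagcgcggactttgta
E2f2: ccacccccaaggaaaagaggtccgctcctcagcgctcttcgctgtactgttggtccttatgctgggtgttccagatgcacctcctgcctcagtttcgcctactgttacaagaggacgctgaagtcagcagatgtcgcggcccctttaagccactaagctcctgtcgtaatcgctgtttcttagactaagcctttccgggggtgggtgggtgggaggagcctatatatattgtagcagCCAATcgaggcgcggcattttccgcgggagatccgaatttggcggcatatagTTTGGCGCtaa

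Orc1 held 1 E2F match, which began at base -27 from the start and read in reverse, and 2 CCAAT matches. E2f2 held an E2F match at base 40 and a CCAAT match, Cdk6 held an E-box at base -220, and the Ccnd3 window held none of the 5. Promoters of 35 members were in the table. An E2F match was in 12 of these 35 (34.3%) and in 2.26% of all 32851 promoters of the same length. It was in 7 of the 10 origin and helicase genes with a promoter (Orc1, Cdc6, Cdt1, Mcm3, Mcm5, Mcm6 and Mcm7) and in 4 of the 11 of the polymerases, clamp and ligase (Rfc3, Pold1, Pole2 and Pola1). CCAAT was in 18 members (51.4%, against 37.4% of all promoters), the E-box in 6 (17.1% against 7.15%), CHR in 3 (8.57% against 17.9%) and the STAT motif in 3 (Lig1, Mcm5 and Cdc45, 8.57% against 8.30%). Of the 12 members with an E2F match 10 fell from 2 h to 8 h in the comparison of the times, and of the 23 with a promoter and no match 15 fell; over all genes tested the shares were 35.9% and 28.2%. A match is a run of letters and not a measured binding site.

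The deposited values are RMA intensities, given here on the log2 scale, and a level of 1 probe set cannot be set against that of another. Markers of CD4+ T cells had a mean log2 intensity of 11.65 to 11.81 on the 2 h arrays and of up to 12.07 on the 8 h arrays, without overlap. Those of B cells were at 7.66 to 7.81 and 7.95 to 8.16, and those of NK cells at 4.12 to 4.39 at 2 h. Those of CD8+ T cells were at 7.59 to 7.82 and 7.94 to 8.16, and those of platelets at 6.70 to 7.35 and 6.80 to 7.86. The upper quartile of intensity of an array was between 398 (JAK1 at 8 h) and 497 (JAK2 at 8 h). Precision is limited by the small number of arrays. No condition was repeated, so the error behind each p is scatter between inhibitors and not the spread between cultures. In the additive fit it is the scatter of the 7 inhibitors around a shared change with time. In tests on 1 value per inhibitor it is the scatter of inhibitors within the groups compared. The fits also moderate the error of each gene by that of all genes.

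Between 2 h and 8 h most of the 41 genes fell. In the fit across all genes (limma, Benjamini-Hochberg adjusted p below 0.05 over 11851 genes, n = 7 inhibitors at each time), 29 members were lower at 8 h and 1 was higher, 30 called in all. Over all genes 49.3% were called, 28.0% lower and 21.3% higher. The median change of the members was -0.25 on the log2 scale, against 0.02 for all genes tested. Under quantile normalization, cyclic loess and median centring the median of the members was -0.21, -0.20 and -0.29, and 29 to 30 of them were lower. In 17 members all 7 values at 8 h lay below all 7 values at 2 h (15.6% of all genes), and in 1 member, Ccnd3, they lay above (8.87% of all genes). The change was negative under each of the 7 inhibitors in 23 members (22.2% of all genes). In bulk RNA, fewer cells in a phase and less RNA of a gene per cell cannot be told apart. Markers of CD4+ T cells (6 of 6) and of B cells (5 of 6 tested) were higher at 8 h by the same test. So were markers of platelets (2 of 4), CD8+ T cells (1 of 2) and skeletal muscle (1 of 6 tested). Of the myeloid markers tested, 1 of 2 was lower. The part of these markers in the changes was not tested. The members are mostly bright, with 13 and 25 of the 41 in the next to brightest and the brightest 20% of genes, where 40.5% and 36.5% of all genes were lower at 8 h.

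**Figure D1:**
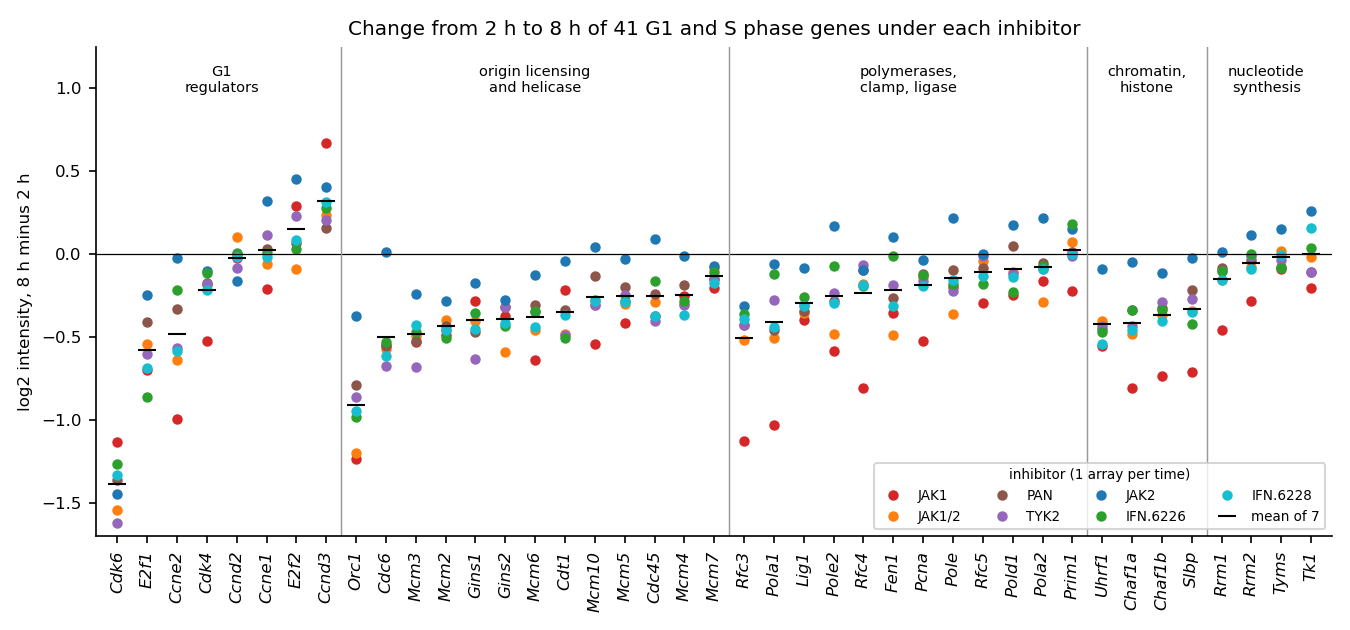
Change of log2 intensity from 2 h to 8 h (vertical axis) of the 41 genes, grouped by role (horizontal axis). Each point is 1 inhibitor with 1 array per time, and the black bar is the mean of the 7. All 13 origin and helicase genes lie below 0 on average, and Ccnd3 is above 0 under each inhibitor. The points of the JAK2 inhibitor are the highest in most genes of each role.

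Among the G1 regulators, Cdk6, Cdk4, Ccne2 and E2f1 fell and Ccnd3 rose. Cdk6, a kinase partner of the D cyclins, had log2 intensities from 10.85 to 11.50 (median 11.09) on the 2 h arrays and from 9.63 to 10.05 (median 9.71) on the 8 h arrays. All 7 values at 8 h were below all 7 at 2 h, and the JAK2 array was the highest at both times. The fall was 1.39 on the log2 scale, 2.61-fold (11.13 ± 0.21 against 9.74 ± 0.14, SD, n = 7, SE of the change 0.06, limma adjusted p = 5.08e-10), the largest among the 41. E2f1, an activating E2F factor, ranged from 10.10 to 10.28 (median 10.16) at 2 h and from 9.38 to 9.91 (median 9.55) at 8 h, again without overlap. It fell by 0.58 (SE 0.07, limma adjusted p = 6.93e-06). Ccne2, one of the E cyclins that activate CDK2, fell by 0.48 and Cdk4, the other D cyclin kinase, by 0.21.

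Ccnd3, cyclin D3, moved the other way. Its values were 9.98 to 10.49 (median 10.41) at 2 h and 10.57 to 10.84 (median 10.69) at 8 h. Every 8 h value was above every 2 h value, with the JAK1 array far below the other 6 at 2 h, which lay between 10.40 and 10.49. The rise was 0.32 (SE 0.06, limma adjusted p = 3.73e-04). Ccnd2, cyclin D2, changed by -0.02 (95% interval -0.10 to 0.05) and Ccne1, the other E cyclin, by 0.03 (-0.10 to 0.15), neither past the threshold. E2f2, another activating E2F factor, was at 0.15 (0.02 to 0.29, limma adjusted p = 0.0549), with 6 of 7 inhibitors positive, and it passed after quantile normalization (0.22). So 3 of the D and E cyclins and their kinases fell, 1 rose and 2 did not pass.

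**Figure D2:**
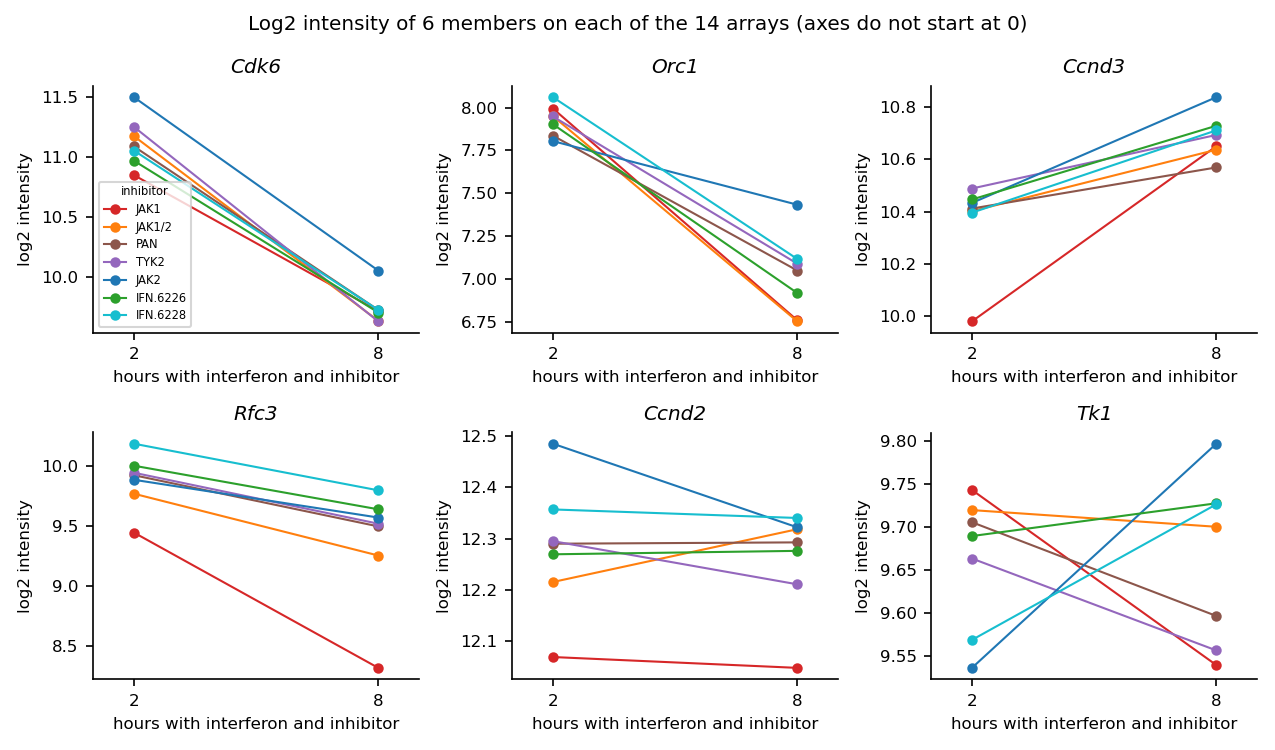
Log2 intensity (vertical axis, not starting at 0) at 2 h and 8 h (horizontal axis) of 6 members, with 1 line per inhibitor joining its 2 arrays. Cdk6 and Orc1 fall under each inhibitor and Ccnd3 rises under each, while Rfc3 is lowest with the JAK1 inhibitor at both times and Tk1 moves in both directions.

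All 13 genes of origin licensing and the helicase fell, with a median of -0.38. Orc1, the large subunit of the origin recognition complex, was at 7.80 to 8.06 (median 7.95) at 2 h and at 6.75 to 7.43 (median 7.05) at 8 h. The times did not overlap, and the JAK2 array was the lowest at 2 h and the highest at 8 h. Orc1 fell by 0.91 (1.88-fold, SE 0.09, limma adjusted p = 1.45e-06). Cdc6 and Cdt1, which load the MCM helicase onto the origin complex, fell by 0.50 and 0.35. The subunits of that helicase fell together, from Mcm3 at -0.48 (SE 0.05, limma adjusted p = 5.44e-06), Mcm2 at -0.43 (SE 0.04, 1.59e-06) and Mcm6 at -0.38 (SE 0.05, 4.77e-05) to Mcm5 at -0.25, Mcm4 at -0.24 and Mcm7 at -0.13. Mcm2 was at 10.89 to 11.06 (median 11.01) at 2 h and at 10.41 to 10.73 (median 10.59) at 8 h, with no overlap. For Mcm7 the ranges 11.41 to 11.65 and 11.21 to 11.50 did overlap. Of the factors that turn the loaded helicase into an active one, Gins2 fell by 0.39 (SE 0.05, limma adjusted p = 3.38e-05), Gins1 by 0.40, Mcm10 by 0.26 and Cdc45 by 0.25. No member of this group was higher at 8 h on average.

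Among the polymerases, clamp and ligase 7 of 12 fell, with a median of -0.20. Rfc3, a subunit of the clamp loader, was at 9.45 to 10.19 (median 9.93) at 2 h and at 8.32 to 9.80 (median 9.52) at 8 h. Both the lowest values belonged to the JAK1 inhibitor and both the highest to IFN.6228, so the times overlapped. Rfc3 fell by 0.51 (1.42-fold, SE 0.08), and by 0.41 without the JAK1 8 h array. Of the other loader subunits Rfc4 fell by 0.23 and Rfc5 was at -0.10 (limma adjusted p = 0.0568). Pcna, the sliding clamp, fell by 0.19, and its probe sets gave the same value. Pola1, the catalytic subunit of the polymerase that starts each new strand, fell by 0.41, while its partners Pola2 (-0.08) and Prim1 (0.03) did not pass. Pole2, a subunit of the leading strand polymerase, fell by 0.25, and the catalytic subunits Pole (-0.14) and Pold1 (-0.09) did not pass. Lig1, which joins Okazaki fragments, fell by 0.29 and Fen1, which trims their flaps, by 0.21. The calls of Fen1 and Pole2 were lost without the JAK1/2 inhibitor, and that of Fen1 also without PAN or IFN.6228 or with the arrays unpaired.

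All 4 genes of chromatin and histone supply fell, with a median of -0.39. Uhrf1, which keeps DNA methylation through replication, was at 10.31 to 10.63 (median 10.54) at 2 h and at 9.76 to 10.38 (median 10.10) at 8 h. Its ranges overlapped because the JAK1 array was low at 2 h and the JAK2 array high at 8 h. Uhrf1 fell by 0.42 (1.34-fold, SE 0.06, limma adjusted p = 2.89e-05). Chaf1a and Chaf1b, subunits of the factor that places new histones, fell by 0.41 and 0.37, and Slbp, which binds histone mRNA, by 0.33.

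The 4 enzymes of nucleotide synthesis had a median change near 0, of -0.04, and 1 of them fell. Rrm1, the large subunit of ribonucleotide reductase, fell by 0.15 (SE 0.05, limma adjusted p = 0.0208). Its small subunit Rrm2 changed by -0.05 (95% interval -0.15 to 0.04), Tyms, the thymidylate synthase, by -0.02 (-0.12 to 0.08) and Tk1, the thymidine kinase, by 0.00 (-0.13 to 0.13). None of these 3 passed. Tk1 ranged from 9.54 to 9.74 (median 9.69) at 2 h and from 9.54 to 9.80 (median 9.70) at 8 h, and the times overlapped throughout.

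Other genes of the same pathways were counted on lists drawn up by function. For comparison, 28.0% of all genes were lower at 8 h and 21.3% higher. Of 34 other replication genes tested, 17 fell and 1 rose, with a median of -0.20; Pold2, a polymerase subunit, was at -0.52, Msh6, of mismatch repair, at -0.58 and Asf1b, a histone chaperone, at 0.21. Of 15 other G1 drivers 10 fell and 1 rose, among them E2f3 (-0.99), the phosphatase Cdc25a (-0.51) and Myc (-0.57), while cyclin A2 (Ccna2) rose by 0.20. Of 11 G1 brakes 6 rose and 0 fell. Cdkn2c, a CDK inhibitor of the INK4 family, rose by 0.79, the pocket protein Rbl2 by 0.76, Btg2 by 0.66 and Cdkn1b (p27) by 0.36. Of 18 other nucleotide enzymes 13 fell and 3 rose, with a median of -0.43. Shmt2 and Ctps were at -1.10 and -1.07, and the kinases of the salvage pathway Dck and Tk2 rose by 0.34 and 0.44.

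Of 23 genes of G2 and mitosis tested, 18 rose (21.3% of all genes) and 0 fell (28.0% of all genes), with a median of 0.34. Cdc20, an activator of the anaphase-promoting complex, rose by 0.59, Cenpf of the kinetochore by 0.66 and Plk1, a mitotic kinase, by 0.44. Cdk1, the mitotic kinase itself, was at -0.03 and did not pass. The S phase genes and these mitotic genes were measured on the same arrays, and no test compared the lists.

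**Figure D3:**
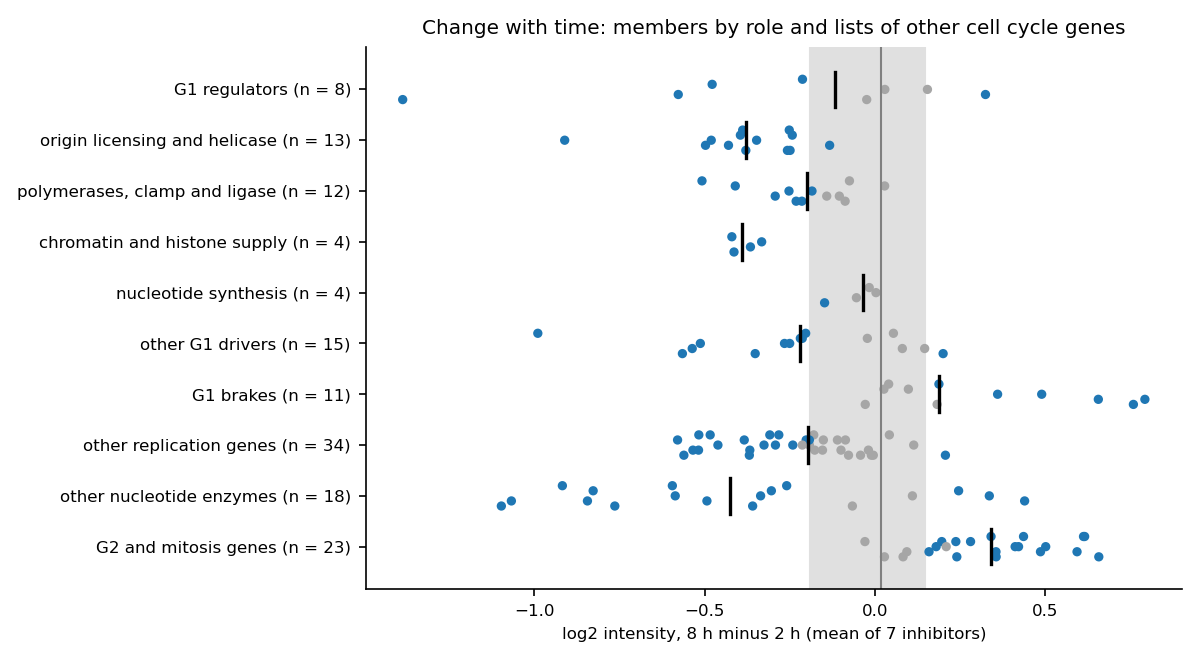
Change of log2 intensity from 2 h to 8 h (horizontal axis, mean of the 7 inhibitors) of each member by role and of the lists of other cell cycle genes. Points are genes, blue where the adjusted p was below 0.05, black bars are medians, the grey line is the median of all genes (0.02) and the grey band their middle 50%. Origin genes lie left of 0, and the genes of G2 and mitosis (median 0.34) to the right except Cdk1 at -0.03.

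By inhibitor, the median change of the 41 members was -0.42 with JAK1, -0.34 with JAK1/2, -0.31 with IFN.6228, -0.27 with TYK2, -0.21 with PAN, -0.21 with IFN.6226 and -0.03 with JAK2. The corresponding medians of all genes ran from -0.10 (JAK1) to 0.05 (JAK2). The span of the members' medians depended on the scaling. With JAK2 the median was -0.09 after quantile normalization, -0.11 after cyclic loess and 0.01 after median centring, and with JAK1 it was -0.29, -0.26 and -0.47. With JAK2, 24 of the 41 members were lower at 8 h, against 35 to 39 with each of the others. The share of all genes lower at 8 h was not counted by inhibitor, so these counts have no background. Under the JAK2 inhibitor Cdc6 went from 8.52 to 8.53, and under the other 6 it changed by -0.53 to -0.67. Orc1 changed by -0.37 with JAK2 and by -0.79 to -1.24 with the others. Cdk6 was an exception, with -1.45 under JAK2, inside the range of the other 6 (-1.13 to -1.62).

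At 8 h the JAK2 array was the highest of 7 in 37 of 41 members (42.9% of all genes) and the JAK1 array the lowest in 28 (45.3% of all genes). These counts changed with the scaling. After quantile normalization they were 21 (17.3% of all genes) and 18 (31.6%), and after cyclic loess 20 (20.7%) and 15 (30.6%). After median centring they were 36 (44.8% of all genes) and 28 (43.4%). At 2 h the JAK2 array was the highest in 2 members (15.2% of all genes) and the lowest in 12 (28.6%), and JAK1 was the lowest in 17 (19.6%). The JAK2 array was the lowest at 2 h in 6 members after quantile normalization (19.8% of all genes), in 3 after cyclic loess (20.2%) and in 24 after median centring (43.1%). The JAK2 array had the highest upper quartile of intensity at 8 h (497) and the lowest at 2 h (455), and the part of this in the members' values was not tested.

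**Figure D4:**
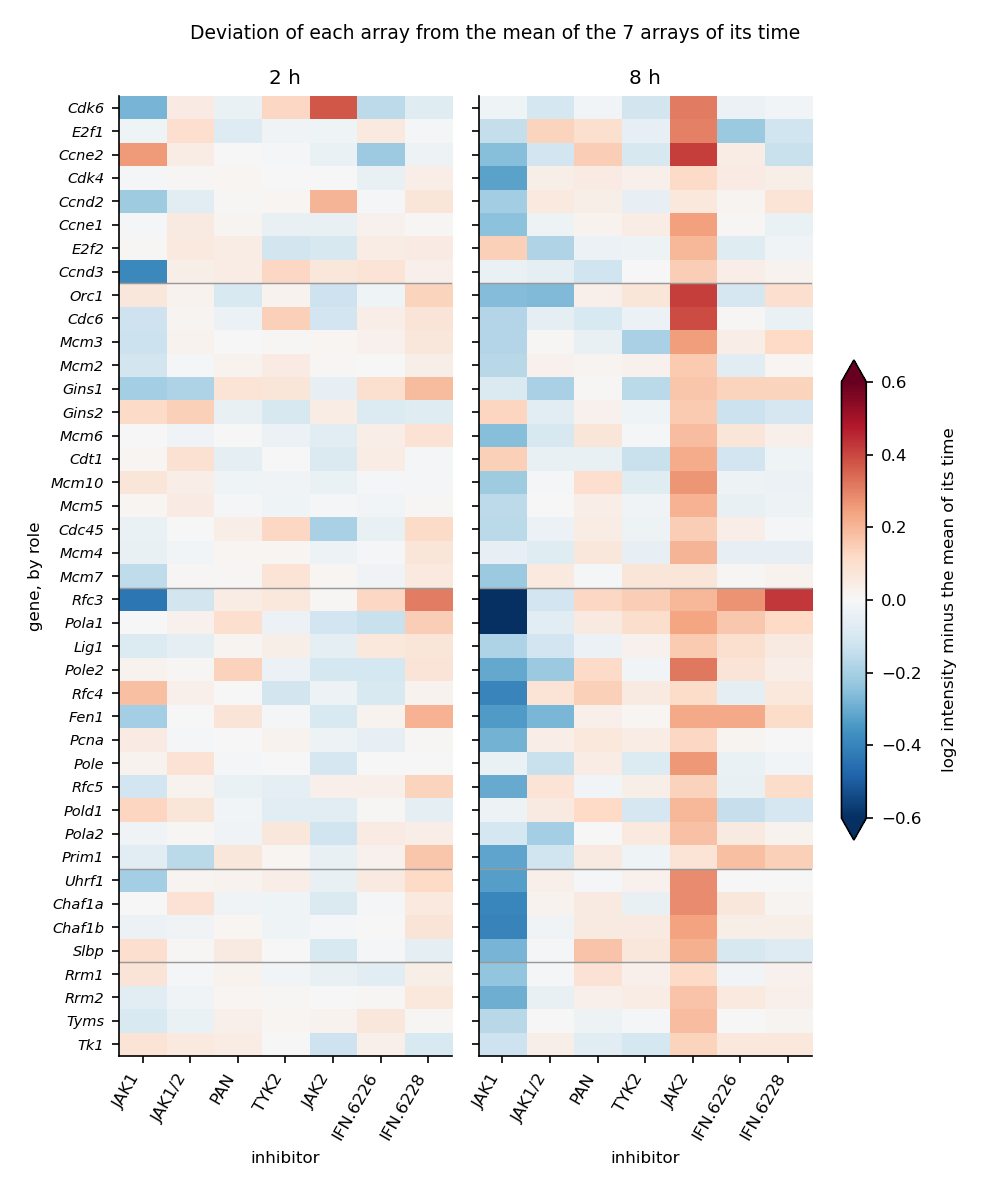
Log2 intensity of each member (rows, by role) on each array (columns) minus the mean of the 7 arrays of its time, at 2 h (left) and 8 h (right). Red is above and blue below that mean, and the scale ends at -0.6 and 0.6. The JAK2 column at 8 h is the highest in 37 of 41 rows and the JAK1 column the lowest in 28.

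A test of 1 inhibitor's change against those of the other 6 was added after these values were seen (limma on the 7 differences). It sets 1 difference against 6 and assumes that the lone one varies like the others, so it describes these arrays. For the JAK2 inhibitor no member passed, and no gene at all (0% called); 22 members and 23.1% of all genes had an unadjusted p below 0.05. The smallest adjusted p among the members was 0.192, shared by Cdc6 at 0.59 (SE 0.13), Uhrf1 at 0.39 (SE 0.11), Pole at 0.42 (SE 0.12) and Orc1 at 0.63 (SE 0.18). The median difference was 0.29 for the members and 0.18 for all genes, and 0.14 and 0.03 after quantile normalization, where 5 members had an unadjusted p below 0.05. No member passed for JAK1/2, PAN, TYK2, IFN.6226 or IFN.6228 either (0% of all genes called for each). At an unadjusted p below 0.05 each of these had 0 members. The shares of all genes were then 4.74% (JAK1/2), 0.27% (PAN), 0.481% (TYK2), 0.641% (IFN.6226) and 0.312% (IFN.6228).

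For the JAK1 inhibitor 8 members passed in that test, 7 with a more negative change and 1 with a more positive one (8.87% of all genes). Rfc4 went from 12.11 to 11.30 with JAK1, a change of -0.81, and changed by -0.07 to -0.19 with the other 6. Its difference was -0.67 (SE 0.08, limma adjusted p = 4.52e-04). Pcna (-0.39, SE 0.06, adjusted p = 0.00382), Rfc3 (-0.72, SE 0.12, 0.00470) and Cdk4 (-0.36, SE 0.07, 0.00666) also had a more negative change with JAK1. Pcna is the clamp, and Rfc3 and Rfc4 are subunits of its loader. Rrm1 differed by -0.36, Pola1 by -0.72 and Slbp by -0.44, and Ccnd3 by 0.40. Each of these rests on 1 JAK1 array per time, and with either left out there is no such test. The one at 8 h had the lowest upper quartile of intensity of all 14 arrays and the lowest mean correlation with the arrays of its time (Pearson r of 0.990; it is taken over genes, which are no replicates). Quantile normalization moved the median change of all genes with JAK1 from -0.10 to 0.00. The members' median difference then went from -0.19 to -0.01, with 8 members called, 7 of them shared, and after cyclic loess it was 0.01. Ccnd3 and Slbp lost their call without any 1 of PAN, TYK2, IFN.6226 and IFN.6228. Both also lost it with median centring, no filter or no variance trend, and Slbp under each rescaling. Pola1 and Rrm1 lost theirs with median centring or no variance trend, and Pcna and Cdk4 with no variance trend.

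Over both times, the inhibitor as such separated few members. The F test over the 7 inhibitors called 1 member, Rfc3 (limma adjusted p = 0.0195; 1.45% of all genes), and the next were Ccnd2 (0.188) and Cdk6 (0.264). Rfc3 lost this call when either the JAK1 inhibitor or IFN.6228 was left out. When just the JAK1 array of 8 h was left out, both Rfc3 and Cdk6 passed.

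With the JAK1 inhibitor 5 members were lower than with the other 6, and 0 were higher (n = 2 arrays against 12; 7.66% of all genes called, 6.73% lower). Rfc3 was at 9.45 at 2 h and 8.32 at 8 h with JAK1. The other 6 inhibitors were at 9.77 to 10.19 at 2 h and at 9.26 to 9.80 at 8 h, all above the JAK1 array of their time. The difference was -0.87 (1.82-fold, SE 0.12, limma adjusted p = 6.71e-04). Ccnd2 was at 12.07 and 12.05 with JAK1, and the other 12 arrays were at 12.21 to 12.48. It differed by -0.25 (SE 0.05, adjusted p = 0.0119), Mcm7 by -0.22 (SE 0.05, 0.0239), Rfc5 by -0.24 (SE 0.06, 0.0305) and Uhrf1 by -0.31 (SE 0.08, 0.0343). The 5 are a clamp loader pair, a D cyclin, a helicase subunit and a methylation factor. The members' median was -0.15 and that of all genes -0.05. After quantile normalization and after cyclic loess the members' median was -0.07, with that of all genes at 0.00.

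Of the other lists, 2 of 34 replication genes, 4 of 18 nucleotide enzymes and 2 of 23 genes of G2 and mitosis were lower with JAK1, beside 6.73% of all genes, and 0 of the G1 brakes and drivers were called. The medians were -0.18 for the replication genes, -0.18 for the nucleotide enzymes and -0.10 for G2 and mitosis, against -0.05 for all genes. No test compared these lists with all genes. Without the JAK1 8 h array 3 members passed (1.95% of all genes): Rfc3 at -0.51 (adjusted p = 0.0047), Ccnd2 at -0.25 (0.0487) and Ccnd3 at -0.45 (0.00587), and the members' median went to -0.02. Only Rfc3 and Ccnd2 are in both sets. Rfc3 and Ccnd2 were also the ones called after median centring, and Rfc3 alone passed with no variance trend. Uhrf1 lost its call without any 1 of PAN, TYK2, IFN.6226 and IFN.6228, Rfc5 without TYK2 or either JAK3 inhibitor and Mcm7 without TYK2 or IFN.6228. Quantile normalization called the same 5 and Gins2, which was higher with JAK1 (0.24). The markers of skeletal muscle had a mean of 7.02 on the JAK1 8 h array, in a range of 6.34 to 7.04 over the 8 h arrays. With JAK1, 1 of 6 of them tested was higher, and their median difference from the other inhibitors was 0.32. With JAK1/2 that median was 0.64, with 0 of 6 called, and with the rest it was between -0.29 and -0.12. The part of these markers in the values was not tested.

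**Figure D5:**
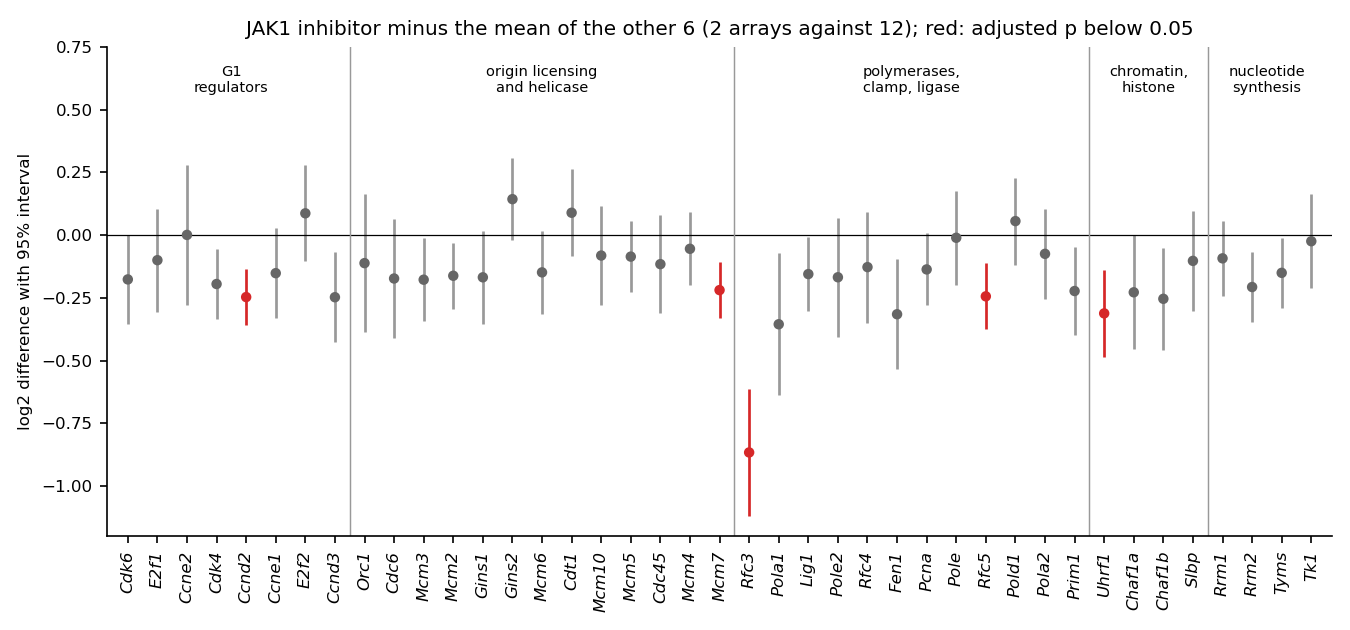
Log2 difference between the JAK1 inhibitor and the mean of the other 6 (vertical axis) for each member by role, over both times, with 95% intervals from the additive fit. The 5 members in red passed an adjusted p of 0.05, and Rfc3 at -0.87 lies farthest from 0.

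Against the inhibitors labelled JAK1/2 and PAN alone, Rfc3 was the 1 member lower with JAK1, with a difference of -0.73 (SE 0.13, limma adjusted p = 0.0163; 0.987% of all genes called, 0.954% lower). It did not pass without PAN (-0.63, adjusted p = 0.21) or without the JAK1 8 h array (-0.37, 0.14). Ccnd2 was next, at -0.22 (adjusted p = 0.104).

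No member passed for the JAK2 inhibitor against the other 6 (0.0759% of all genes called). At an unadjusted p below 0.05 there were 2 members and 4.64% of all genes. Cdk6 came closest. It was at 11.50 at 2 h and 10.05 at 8 h with JAK2, against 10.85 to 11.25 and 9.63 to 9.72 with the others, so the JAK2 array was the highest at both times. The difference was 0.40 (95% interval 0.22 to 0.58, limma adjusted p = 0.0896), and it passed without the JAK1 inhibitor (0.38, 0.0463) or without its 8 h array (0.42, 0.00952). Against the 2 JAK3 inhibitors Cdk6 differed by 0.41 (SE 0.09, adjusted p = 0.289) and no member passed (0.0253% of all genes); without the JAK1 8 h array Cdk6 did (0.0492).

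No member separated the 2 inhibitors labelled JAK3 (0% of all genes called; 0 members and 0.354% of all genes at an unadjusted p below 0.05). IFN.6226 differed from IFN.6228 by -0.13 in Rfc5 (95% interval -0.30 to 0.04), by -0.08 in Ccnd2 (-0.22 to 0.07) and by -0.17 in Rfc3 (-0.50 to 0.16), each with a limma adjusted p of 1.00. These intervals do not show that the pair acts alike. Set against the other 6, neither had a member called (0% of all genes for each). IFN.6228 was highest in Rfc3, by 0.43 (adjusted p = 0.419), which passed without the JAK1 8 h array (0.37, 0.0386). No member was called for JAK1/2 (0.00844% of all genes), PAN (0%) or TYK2 (0%) against the other 6. At an unadjusted p below 0.05 these had 1, 0 and 0 members (5.23%, 0.321% and 4.81% of all genes), and IFN.6228 had 4 (6.89%).

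The 4 inhibitors labelled JAK1, JAK1/2, PAN (taken to include both kinases) and TYK2 were set against the JAK2 inhibitor and the JAK3 pair, as the kinases of the interferon receptor. At 2 h no member passed (0.692% of all genes called). An unadjusted p below 0.05 was reached by 3 members and 4.08% of all genes. Ccnd2 was at -0.15, Rfc3 at -0.25 and Rfc5 at -0.11, each with a limma adjusted p of 0.994. In 1 member all 4 values lay below the other 3 (3.13% of all genes), and in 2 above (1.88%).

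At 8 h no member passed either (0% of all genes; 6 members and 15.7% of all genes at an unadjusted p below 0.05). In 10 members all 4 values lay below the other 3 (13.6% of all genes), counted without rescaling. They were Ccnd3, Mcm3, Gins1, Rfc3, Pola1, Prim1, Fen1, Lig1, Tyms and Tk1. Fen1 was at 8.15, 8.22, 8.52 and 8.51 with JAK1, JAK1/2, PAN and TYK2, and at 8.72, 8.72 and 8.60 with JAK2, IFN.6226 and IFN.6228. The classes did not overlap, and the JAK1 and JAK1/2 arrays were the lowest. The upper quartile of intensity at 8 h was also lower on the 4 arrays (398 to 461) than on the other 3 (464 to 497). Its part in these values was not tested. Fen1 differed by -0.33, Gins1 by -0.25 and Mcm3 by -0.24, each with a limma adjusted p of 0.307. For the change from 2 h to 8 h no member passed (0.101% of all genes), with Pole2 at -0.33, Tk1 at -0.26 and Pola1 at -0.36 (adjusted p = 0.479 for each).

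The 5 inhibitors that name JAK1 or JAK3 were set against JAK2 and TYK2, as the kinases of the interleukin-2 receptor. No member passed at 2 h (0.0422% of all genes) or at 8 h (0%). At an unadjusted p below 0.05 there were 2 members at 2 h (8.9% of all genes) and 1 at 8 h (0.7%). At 2 h Cdk6 was at 10.85 to 11.17 in the 5 and at 11.50 and 11.25 with JAK2 and TYK2, without overlap, a difference of -0.35 (limma adjusted p = 0.248). At 8 h Orc1 had the smallest p, with a difference of -0.34 (adjusted p = 0.982).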

How the data were processed

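Each RNA was hybridised to 1 Affymetrix Mouse Gene 1.0 ST array. The authors deposited an intensity for each probe set on each array, made by RMA in Affymetrix Power Tools per the submitters' processing notes (versions are not given in the sources used here). The values are linear, from 4.78 to 22879, and were put on the log2 scale. Which arrays were normalized together is not given in the sources used here. Of 24922 probe sets, 21425 carried 1 symbol (19752 symbols), 1399 several and 2098 none. Of the gene identifiers 21347 were in the RefSeq table (GRCm38.p6), and 0 symbols were updated from it. Genes whose brightest probe set averaged below the 40th percentile of log2 intensity (6.27) were left out, and 11851 remained. Pairwise Pearson r of the arrays was 0.980 to 0.998, across genes.

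Fits used R 4.3.3 and limma 3.58.1 (lmFit, eBayes with trend=TRUE): 1 additive fit of inhibitor and time over 14 arrays (6 residual degrees of freedom), and fits on 1 value per inhibitor for classes and for changes (5 residual degrees of freedom). P-values were adjusted by Benjamini-Hochberg across these 11851 genes. Tables and plots used Python 3.11.15, pandas 2.3.3 and matplotlib 3.10.9. The fits were tested on simulated data. Members and lists were chosen with earlier results of these data known. Any member could be named; full statistics go to up to 8 called members per comparison by moderated t, or the 3 with the smallest p, with Ccnd3, Rfc3 and Rrm1 added for time. Up to 4 genes per other list are named by t, and Cdkn1b, Asf1b, Ccna2, Dck, Tk2, Cdk1, Cenpf and Plk1 were added after their values were seen. Promoters follow the largest changes, and 6 members had none. Alternatives were quantile normalization, cyclic loess, median centring, the filter dropped or moved to the 60th percentile, probe sets averaged per gene, a prior variance without trend, robust moderation, an offset of 50, no pairing by inhibitor, each inhibitor left out, and the JAK1 8 h array left out.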

Additional observations from a re-analysis of the deposited data

Results flagged for a closer look

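Tk1, the thymidine kinase, was singled out because its change from 2 h to 8 h ran in opposite directions in the 2 classes. It was negative under all 4 inhibitors that name JAK1 or TYK2 (-0.20, -0.02, -0.11 and -0.11 with JAK1, JAK1/2, PAN and TYK2) and positive under the other 3 (0.26, 0.04 and 0.16 with JAK2, IFN.6226 and IFN.6228). The difference between the classes was -0.26. The fit across all genes gave it an adjusted p of 0.479 (limma), so it did not pass. These values are from the brightest Tk1 probe set (mean log2 intensity 9.66), whose mean change was 0.00. Another Tk1 probe set (9.57) had a mean change of 0.07, and its values by inhibitor are not given here.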

How the results depend on the processing

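Of the 30 members called between the times, 27 kept their call in every alternative in which they were tested, 18 at most; the exceptions were Fen1, Pole2 and Rrm1, the last with no variance trend. The count ran from 29 to 34, and no called member changed direction. Medians near 0 did: that of the members for the change with JAK1 against the others went from -0.19 to 0.01 after cyclic loess, and after median centring that of the change with JAK2 went from -0.03 to 0.01 and that of all genes between the times from 0.02 to -0.02. With JAK1 against the other 6, 2 members passed after median centring, 1 with no variance trend and 3 without the JAK1 8 h array, and leaving out an inhibitor gave 2 to 7. The F test gave 0 members with no variance trend (103 genes, against 172 in the main fit). It gave 0 to 1 with an inhibitor left out (45 to 216 genes). JAK2 against the other 6 gave 0 to 1 with an inhibitor left out (4 to 51 genes) and 1 without the JAK1 8 h array (81 genes). Without that array there was also 1 for IFN.6228 against the other 6 (25 genes) and 1 for JAK2 against the JAK3 pair (18 genes). JAK1 against JAK1/2 and PAN gave 0 to 1 with an inhibitor left out (42 to 142 genes). The change with JAK1 against the others sets 1 difference against 6. Its number of members called also moved with median centring, the variance trend and the inhibitor left out. The cause was not tested. The split of all genes followed the scaling: between the times 2526 were higher and 3316 lower, 1850 and 3486 after median centring and 3123 and 3178 after quantile normalization, and for JAK1 111 and 797, 745 and 758 after quantile normalization and 708 and 754 after cyclic loess. No paired analysis by replicate number was possible because each inhibitor and time had 1 array; without pairing by inhibitor 31 members passed between the times.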
